A study of Saccharomyces cerevisiae with 23 samples.

Results

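The comparison described here set yeast carrying Tup1K270R against yeast carrying Cyc8-4KtoR after 30 min in 1.2 M sorbitol. Its members were the 4 of 23 arrays whose labels give these 2 strains and this time, 2 of each strain, and the difference was taken within replicate A and within replicate B. In Tup1K270R a lysine of Tup1 was changed to arginine, and in Cyc8-4KtoR the lysines of K735R, K736R, K738R and K748R of Cyc8 were changed in the same way. In the first strain CYC8 was wild type, and in the second TUP1 was wild type.

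All strains carried 6His-FLAG-SMT3::HIS3MX6, a tagged SUMO gene, together with leu2∆0 and ura3∆0, and with the his3∆1 and met15∆0 alleles. In each of them TUP1, wild type or mutant, had been put back at tup1∆ with URA3, and CYC8 at cyc8∆ with LEU2, both under the endogenous promoters. Each strain was represented by 2 isolates of independent transformations, so an isolate and its replicate cannot be told apart. Cells were grown in YC medium at 30°C, and sorbitol was added for 0, 30 or 60 min. The wild type, both single mutants and the double mutant were each hybridised against the unstressed wild-type culture of their own replicate set, with the dyes exchanged between the sets. A level below is the log2 ratio of a sample over that reference culture, and a difference is the level in Tup1K270R minus the level in Cyc8-4KtoR, so positive values are higher in Tup1K270R. These are 2 arrays a strain, and their number limits the precision of every value.

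Tup1 and Cyc8 form a corepressor that does not bind DNA itself. Sequence-specific repressors such as Mig1, Nrg1 and Sko1 bring it to genes that are kept low in glucose, in the absence of osmotic stress, in one mating type or in the presence of oxygen, and it acts through histone deacetylases and contacts with the Mediator complex. SUMO is a small protein that is joined to lysines of other proteins, and replacing the acceptor lysine by arginine prevents the modification at that site. In hyperosmotic medium yeast cells lose water, activate the kinase Hog1, make glycerol and change the transcription of many genes for a limited time.

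On the 4 arrays the share of spots with both channels well above background was 95.3% to 98.5%, and over all 23 arrays the median signals were 572 to 977 in Cy3 and 557 to 861 in Cy5. The a cell markers, which these MATa strains should express, were well above background on all 4 arrays of the comparison for 5 of 5 probes, with summed signals of 7262 to 8562. The 4 alpha cell markers summed to 474 to 580, and 3 of them were well above background on all 4 arrays. All 8 markers of meiosis were also above background, with sums of 1055 to 1199. As in the study, the stretch of probes running from YDR211W through YDR261C did not enter the tests. The methods describe raised expression there in an isolate of Tup1K270R. In the deposited signals of replicate A these 51 probes were lower in that strain, with a median level of -0.91 to -0.58 over the 3 times, against -0.08 to 0.11 on the other 20 arrays. The direction of the ratios was taken from the dyes of the labels. With it RTN2, a gene that responds to osmotic stress, was raised at 30 min in both sets. It stood at 3.77 and 3.82 in the wild type of replicates A and B and at 3.50 and 3.25 in Tup1K270R.

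The genes of the constructs were read first. TUP1 had levels of 0.96 and 0.02 in Tup1K270R of replicates A and B, and of -0.43 and 0.66 in Cyc8-4KtoR. CYC8 stood at -1.35 and 0.90 in Tup1K270R and at 0.79 and 0.80 in Cyc8-4KtoR. The array of replicate A was thus the lowest for CYC8 and the highest for TUP1. LEU2, the marker placed beside CYC8, stood at -1.87 and 0.94 in Tup1K270R and at 0.55 and 0.25 in Cyc8-4KtoR, so that its difference was -2.42 in replicate A and 0.69 in replicate B. URA3, placed beside TUP1, differed by 0.75 and -0.92. None of the 4 had the same sign in both replicates, their adjusted p-values were 0.617 to 0.978, and their part in the results below was not tested. SMT3 differed by -0.03 and MET17 by -0.09 on the mean. The probes do not separate the mutant from the wild-type alleles and so do not check the labels.

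**Figure D1:**
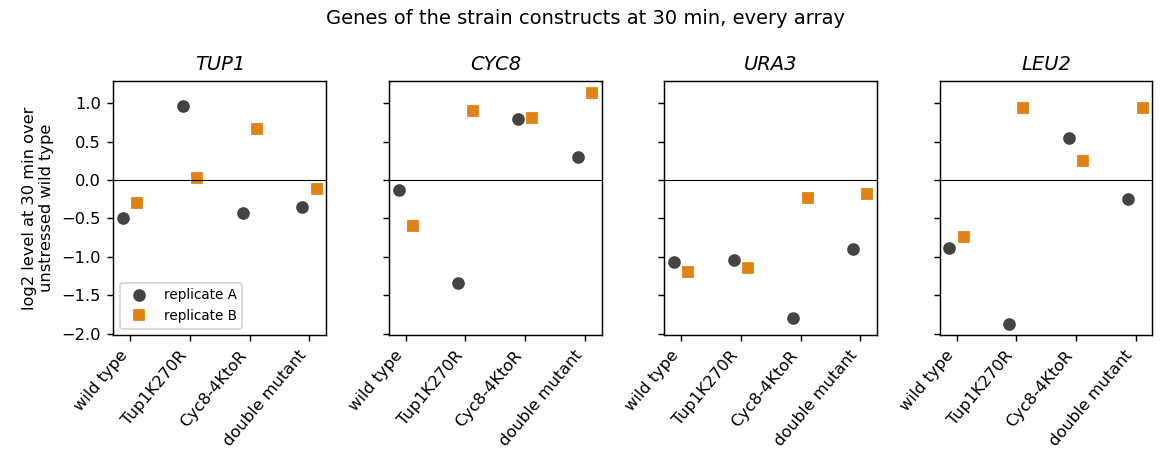
Levels of TUP1, CYC8, URA3 and LEU2 at 30 min on each array of the 4 strains, as log2 over the unstressed wild-type culture of the replicate set. Circles are replicate A and squares replicate B. In Tup1K270R, CYC8 and LEU2 were at -1.35 and -1.87 in replicate A and at 0.90 and 0.94 in replicate B.

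Of 6131 probes tested at 30 min, 129 differed between the single mutants with an adjusted p under 0.05 (2.1% of the probes; limma with Benjamini-Hochberg adjustment, all 22 arrays of the 11 groups in the fit). Of these, 52 were higher in Tup1K270R (0.848%) and 77 were lower (1.26%). All 129 had the same sign in both replicates, but the calls rest on the mean of these same values, so this is not independent evidence. The last probe inside this limit was SER1, with a difference of 0.42 and an adjusted p of 0.0498, and the first outside was YLR278C, with -0.29 and 0.0534. At an unadjusted p under 0.05 there were 307 higher (5.01%) and 504 lower (8.22%) probes. On the mean of both replicates 98 probes were higher by over 0.65 log2 units (1.6%) and 145 lower (2.37%), and 29 (0.473%) and 56 (0.913%) passed that size in each replicate. Across all probes the median difference was -0.01, 23.5% of them were above 0 in both replicates and 29.4% below. The differences of replicates A and B had a Pearson correlation across the 6131 probes of 0.352, as a description, since genes are not independent replicates.

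The number of calls rested on the spread shared by all 22 arrays, in which the times of an isolate counted as independent samples. It was 0 with only the 4 arrays in the fit, 24 with no replicate block (12 higher and 12 lower), 4 without replicate A and 88 without replicate B, and the deposited log ratios in place of the signals gave 2, HIS4 and HAP4. With normexp background correction it was 53, of which 35 were higher and 18 lower, so that the split between the directions also changed. Both arrays of replicate A lay on slide 3, and those of replicate B on slides 2 and 1.

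**Figure D2:**
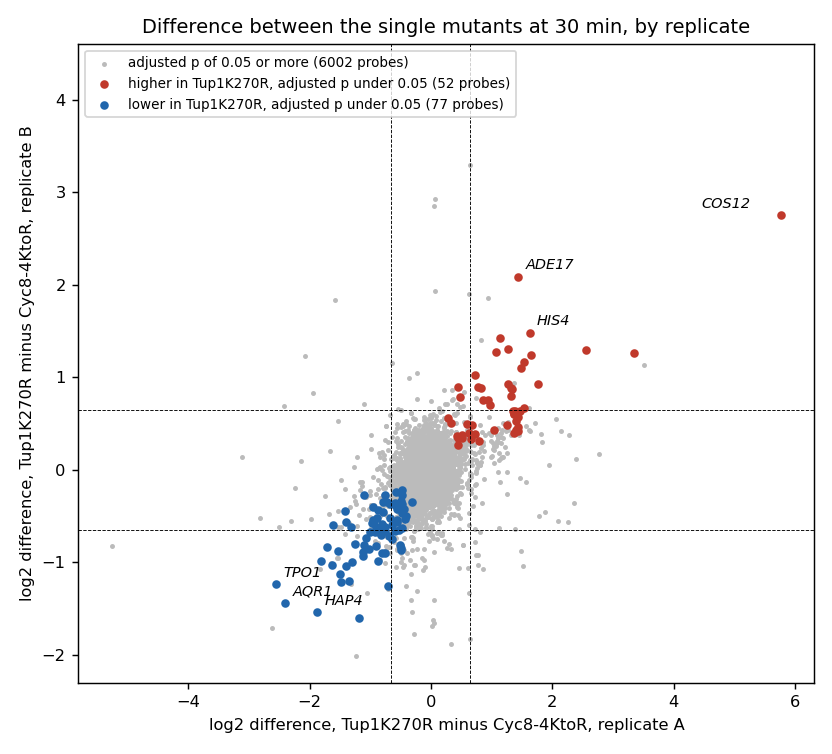
Difference between Tup1K270R and Cyc8-4KtoR at 30 min for every probe tested, in log2 units, with replicate A on the horizontal and replicate B on the vertical axis. Red points are the 52 probes called higher, blue points the 77 called lower, grey points the rest, and dashed lines mark 0.65 log2 units. All coloured points have the same sign on both axes. COS12 is drawn at its measured values, which are not a size, since it was not well above background in Cyc8-4KtoR.

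Genes of purine, histidine and arginine synthesis were among those higher in Tup1K270R. ADE17, which encodes the enzyme of the last steps of inosine monophosphate synthesis, had levels of -0.20 and 1.80 in Tup1K270R against -1.64 and -0.29 in Cyc8-4KtoR. It was 3.39-fold higher on the mean (difference 1.76 ± 0.28, SE, adjusted p = 0.00725, limma). Both arrays of Tup1K270R lay above both of Cyc8-4KtoR, but the nearest values, of replicates A and B, were close. HIS4, a trifunctional enzyme of histidine synthesis, stood at -0.48 and 0.56 against -2.11 and -0.93. This gene was 2.94-fold higher (1.56 ± 0.23, adjusted p = 0.00632), with similar differences of 1.63 and 1.48 in the replicates. ARG1, argininosuccinate synthetase, stood at -0.06 and 0.78 against -1.72 and -0.46 and was 2.72-fold higher (1.45 ± 0.27, adjusted p = 0.0141).

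ADE1 encodes the synthetase and ADE13 the lyase of the steps before ADE17. Their differences were 1.28 and 1.17, both with an adjusted p of 0.00725, and ADE57, a bifunctional enzyme of early steps, differed by 0.84. Among the 12 measured genes of the purine list, 3 were higher with an adjusted p under 0.05 and none was lower, the median difference was 0.34 (0.16 and 0.52 in replicates A and B), and 9 were above 0 in both replicates (75%, against 23.5% of all probes). ADE57 is not in that count, since the list spells it otherwise. The purine list, like the histidine list, was chosen after its values were seen, so its counts are not independent evidence of a direction. In the histidine list HIS4 alone of 6 genes passed, with a median of 0.19, and in the arginine list ARG1 alone of 10, with a median of 0.13. The unstressed wild-type cultures of the 2 sets differed in these genes as well. On the array that compared them directly, culture B over culture A was -1.65 for ADE17, -0.92 for HIS4 and -0.90 for ARG1. For ADE13 and ADE1 it was -0.79 and -0.53. The standard deviation of that array over all probes was 0.235. Both arrays of a set share its reference culture, so this offset enters the levels but cancels in the differences. Whether similar variation between cultures lies between the strains was not tested.

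**Figure D3:**
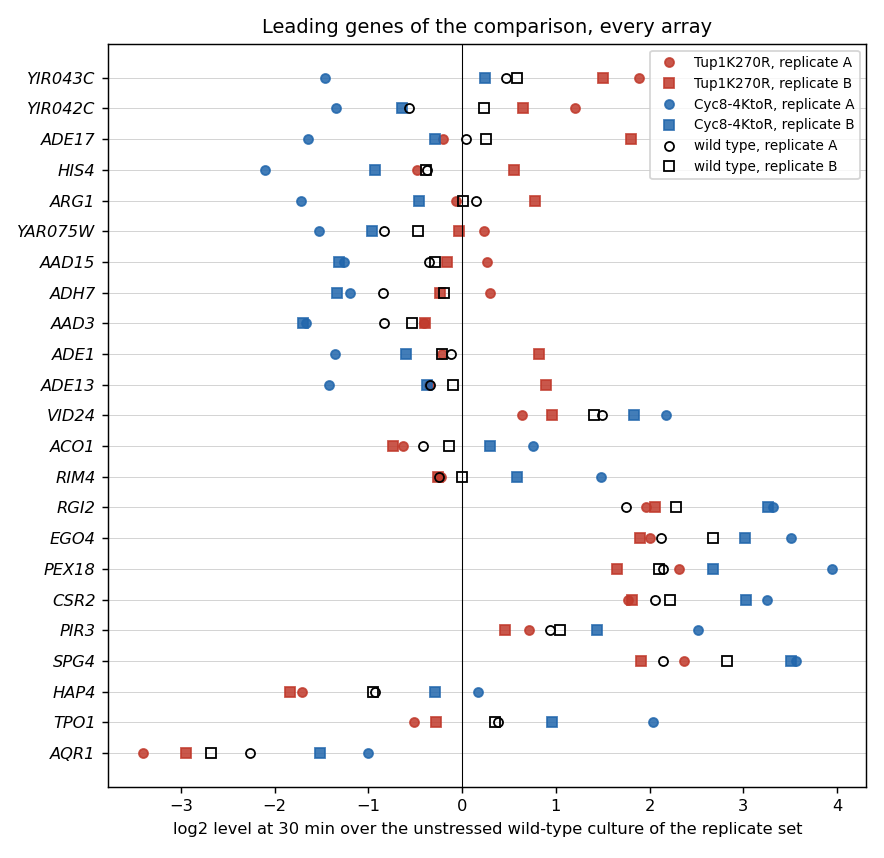
Levels at 30 min of the genes with the largest mean differences in each direction, on every array of Tup1K270R (red), Cyc8-4KtoR (blue) and wild type (open black), in log2 over the unstressed wild-type culture of the set. Circles are replicate A and squares replicate B. The red points lie right of the blue points of the same shape in the upper 11 rows and left of them in the lower 12.

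Some aryl-alcohol and medium-chain alcohol dehydrogenase genes were higher in Tup1K270R, with replicates close to each other. AAD15 stood at 0.26 and -0.16 in Tup1K270R and at -1.26 and -1.32 in Cyc8-4KtoR, a difference of 1.34 ± 0.13 (adjusted p = 0.000793). AAD3 stood at -0.40 and -0.39 against -1.66 and -1.70, a difference of 1.28 ± 0.15 (adjusted p = 0.00109). ADH7, an NADPH-dependent alcohol dehydrogenase, differed by 1.30 ± 0.19 (adjusted p = 0.00529). For these genes both arrays of Cyc8-4KtoR lay below both arrays of Tup1K270R and of the wild type. In the list of aryl-alcohol dehydrogenase genes, 3 of 6 measured members passed, AAD15, AAD3 and AAD4 (0.40), all higher, and the median was 0.35. That list was also chosen after its values were seen.

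By their systematic names AAD3 and ADH7 lie in a block of neighbours, and AAD15 in another on a different chromosome. ADH7, RDS1 (a zinc cluster protein, 0.64) and AAD3 are YCR105W, YCR106W and YCR107W, and BDS1 (a sulfatase, 0.73), AAD15 and YOL166C (1.06) are YOL164W, YOL165C and YOL166C. All 6 were called. Most of these probes were dim, and with normexp background correction AAD15 differed by 0.48, AAD3 by 0.14, ADH7 by 0.23, YOL166C by 0.23 and RDS1 by 0.27, all still higher in Tup1K270R and none called, while BDS1 differed by 0.48 and was called.

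Genes near the ends of chromosomes took up most of the higher group. Of the 45 higher probes that could be placed in the chromosome order, 35 were among the outermost 15 genes of an end, against 5 of 76 lower ones, and 443 of the 5641 placed probes tested lay there. The median difference of these 443 was 0.11, 35 of them were called higher, and 220 were above 0 in both replicates (49.7%, against 23.5% of all probes). Of the 35, 15 belonged to Y' elements, the repeats next to many telomeres, and 20 did not. The blocks of AAD3 and AAD15 above were not left out of these counts, so the same genes may be described in both places.

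The Y' elements hold near-identical copies of a helicase gene, so their probes share signal and count as a single measurement. Of 17 such probes 15 were called, with mean differences of 0.87 to 1.103. In replicate A they differed by 1.25 to 1.53 and in replicate B by 0.38 to 0.93, so that all 17 were higher in Tup1K270R and the ranges of the replicates did not overlap. Among the 8 named helicase genes 6 were called. YRF1-6, for instance, stood at 1.21 and 0.22 in Tup1K270R and at -0.17 and -0.41 in Cyc8-4KtoR (1.01 ± 0.18, adjusted p = 0.0117), while the wild type stood at 0.17 and -0.33.

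The COS genes encode a family of membrane proteins that take part in sorting to the vacuole, and most of them lie near telomeres. Their median difference was 0.66, 10 of 12 were above 0 in both replicates, and 3 were called. COS12 was not well above background on either array of Cyc8-4KtoR and was called higher in Tup1K270R (adjusted p = 0.00725). With its Cyc8-4KtoR signals raised to at least the lowest signal of any probe well above background on each array, it was 11.5-fold higher. That floor is not the detection limit of this probe, so the fold is not a strict bound. Replicates A and B gave measured differences of 5.77 and 2.75, and the fold is on the mean of both. With normexp background correction the difference was 0.91 and was not called. COS4 stood at 1.39 and 0.77 against 0.03 and 0.38 (0.88, adjusted p = 0.0464) and COS6 at 0.73 and 0.48 against 0.07 and 0.15 (0.50, adjusted p = 0.0194). COS8 differed by 2.32, but stood at -1.81 and 0.13 in Cyc8-4KtoR and did not pass (adjusted p = 0.0685). The median of the family was 1.07 in replicate A and 0.34 in replicate B. These genes resemble each other, and a probe may read more than its own gene.

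Other genes of chromosome ends were called too. YIR043C stood at 1.88 and 1.51 in Tup1K270R and at -1.46 and 0.24 in Cyc8-4KtoR. Its levels ran close to those of COS8, which stood at 1.70 and 1.27 against -1.81 and 0.13. Whether the 2 probes share signal was not tested. YIR042C, by name the neighbour of YIR043C, stood at 1.21 and 0.65 against -1.34 and -0.64. The differences of YIR043C and YIR042C were 2.31 (adjusted p = 0.0493) and 1.92 (adjusted p = 0.0301). YIR042C was well above background on only 1 array of Cyc8-4KtoR. YAR075W differed by 1.35 (adjusted p = 0.0498) and lost its call under 14 of 15 alternatives. VTH1 and VTH2, near-identical genes related to the sorting receptor of vacuolar carboxypeptidase, differed by 0.85 and 0.84. THI11 and THI12, near-identical thiamine synthesis genes, differed by 0.58 and 0.55, and THI13 differed by 0.75 without a call (adjusted p = 0.0674).

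Transporters that export small organic compounds had the most negative differences among the called probes. AQR1, a plasma membrane exporter of organic acids and amino acids, stood at -3.41 and -2.95 in Tup1K270R and at -1.01 and -1.52 in Cyc8-4KtoR. It was 3.77-fold higher in Cyc8-4KtoR (difference -1.92 ± 0.23, adjusted p = 0.00149), and the wild type, at -2.26 and -2.68, lay between the mutants. TPO1, a polyamine exporter, stood at -0.52 and -0.28 against 2.03 and 0.96 and differed by -1.89 ± 0.35 (adjusted p = 0.0141). PDR12, an ABC transporter of weak acids, differed by -0.79 (adjusted p = 0.00529). Of the 10 genes of this list, 3 were called lower, none higher, and 8 were below 0 in both replicates (80%, against 29.4% of all probes), with a median of -0.37. This list was chosen after its values were seen, so its counts are not independent evidence of a direction. The ABC transporters SNQ2 and YOR1, which confer resistance to many drugs, are not in the list. Their differences were -0.71 (adjusted p = 0.00151) and -0.49 (adjusted p = 0.0251).

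HAP4, which had the smallest adjusted p of all lower probes, was lower in Tup1K270R, and 31 of 32 respiratory chain genes lay below 0. HAP4 encodes the activating subunit of the complex that switches on respiratory genes. It stood at -1.70 and -1.83 in Tup1K270R, at 0.17 and -0.29 in Cyc8-4KtoR and at -0.92 and -0.96 in the wild type, so that each strain lay apart from the others. The difference was -1.71 ± 0.18 (adjusted p = 0.000793), a 3.26-fold higher level in Cyc8-4KtoR. HAP4 kept its call in 13 of 15 alternatives, more than any other gene named here. The 4 other genes of the HAP list were not called, and the highest of them, HAP1, differed by 0.64 (adjusted p = 0.0999).

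Of 32 respiratory chain genes 31 were below 0 in both replicates (96.9%, against 29.4% of all probes), with a median of -0.28 and medians of -0.34 and -0.24 in replicates A and B. Only 4 passed the test. CYC1, a cytochrome c, stood at -1.56 and -1.21 against -0.61 and -0.67 (-0.75, adjusted p = 0.016), and the ATP synthase subunits ATP2 and ATP17 differed by -0.48 and -0.42. NDE2, an external NADH dehydrogenase, differed by -0.55, but by 0.15 with normexp background correction. In the tricarboxylic acid cycle ACO1, aconitase, stood at -0.64 and -0.74 against 0.76 and 0.30 (-1.21 ± 0.22, adjusted p = 0.013). It was the only call among 15 genes of the cycle, of which 11 were below 0 in both replicates, with a median of -0.20.

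Glucose-repressed genes are kept low by Mig1 and Tup1-Cyc8 while glucose is present. Of 44 measured, 9 were called lower in Tup1K270R and none higher (20.5% of the list, against 1.26% of all probes), 32 were below 0 in both replicates, and the median was -0.49. In replicates A and B the medians were -0.55 and -0.43, and with normexp background correction the median was -0.18. The list holds HXT6, HXT7 and GSY1, which the study chose on these samples, so that its count is not independent evidence of a direction. SPG4, a gene of stationary phase survival, stood at 2.37 and 1.91 in Tup1K270R against 3.56 and 3.51 in Cyc8-4KtoR (-1.40 ± 0.32, adjusted p = 0.0428), and RGI2, a gene of respiratory growth, at 1.96 and 2.06 against 3.32 and 3.26 (-1.28 ± 0.24, adjusted p = 0.0147). Sorbitol had raised these genes in every strain, with wild-type levels of 2.14 and 2.83 for SPG4 and 1.75 and 2.28 for RGI2. SPG4 differed by -0.19 and RGI2 by -0.28 with normexp background correction, and neither was called there.

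Of the other 7 calls in the list, 6 were of genes for the use of carbon sources other than glucose, and CYC1 is the cytochrome c gene counted with the respiratory chain. CYB2, a lactate dehydrogenase of mitochondria, differed by -1.02 (adjusted p = 0.0159), and JEN1, the lactate permease, by -0.98 (adjusted p = 0.0301). ACS1, which makes acetyl-CoA from acetate, differed by -0.77, the gluconeogenic enzymes MDH2 and FBP1 by -0.68 and -0.48, and the galactose sensor GAL3 by -0.63. With normexp background correction CYB2 differed by -0.35 and FBP1 by -0.096. Outside the list VID24 and GID8, subunits of the ubiquitin ligase that marks gluconeogenic enzymes for degradation, were lower too. VID24 stood at 0.64 and 0.96 against 2.18 and 1.84 (-1.21 ± 0.17, adjusted p = 0.00358), and GID8 differed by -0.53 (adjusted p = 0.0147).

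Hexose transporters import glucose and related sugars, and none of 19 measured passed the test. HXT6 stood at 0.44 and 0.59 in Tup1K270R and at 2.09 and 1.60 in Cyc8-4KtoR, a difference of -1.32 ± 0.44 (adjusted p = 0.176). HXT7, whose sequence is nearly that of HXT6, differed by -1.25 (adjusted p = 0.246) and HXT4 by -1.27 (adjusted p = 0.0535). For these 3 genes both arrays of Tup1K270R lay below both arrays of Cyc8-4KtoR. HXT1 stood at 4.30 and 3.82 against 4.29 and 4.53, so that the strains overlapped (-0.35, adjusted p = 0.637). HXT11 differed by 1.07 (adjusted p = 0.0908), and by 1.83 in replicate A and 0.30 in replicate B. The median of the list was -0.22, and 0.01 with normexp background correction.

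In the glycogen list none of 13 genes passed, 10 were below 0 in both replicates, and the median was -0.42. GAC1, a subunit that directs a phosphatase to glycogen synthase, stood at 1.69 and 0.71 against 4.31 and 2.42 (-2.17 ± 0.57, adjusted p = 0.069). GSY1, glycogen synthase, stood at 1.97 and 0.86 against 2.28 and 1.59 (-0.52, adjusted p = 0.273), and its strains overlapped. The 7 trehalose genes had a median of -0.13 with no call.

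Repressors that recruit Tup1-Cyc8 were measured as a list of 18 genes with their partners, with a median of -0.08. MIG1 stood at -0.40 and -0.37 in Tup1K270R and at 0.43 and 0.28 in Cyc8-4KtoR, with the wild type at 0.05 and -0.03. The difference, -0.74 ± 0.09, passed (adjusted p = 0.00113), as did that of MIG2, a related repressor, at -0.75 ± 0.14 (adjusted p = 0.0159). NRG1 stood at 2.68 and 2.06 against 3.43 and 3.06 (-0.88, adjusted p = 0.0725). NRG2 had opposite signs in the replicates, 1.52 and -1.04. No other member was called.

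**Figure D4:**
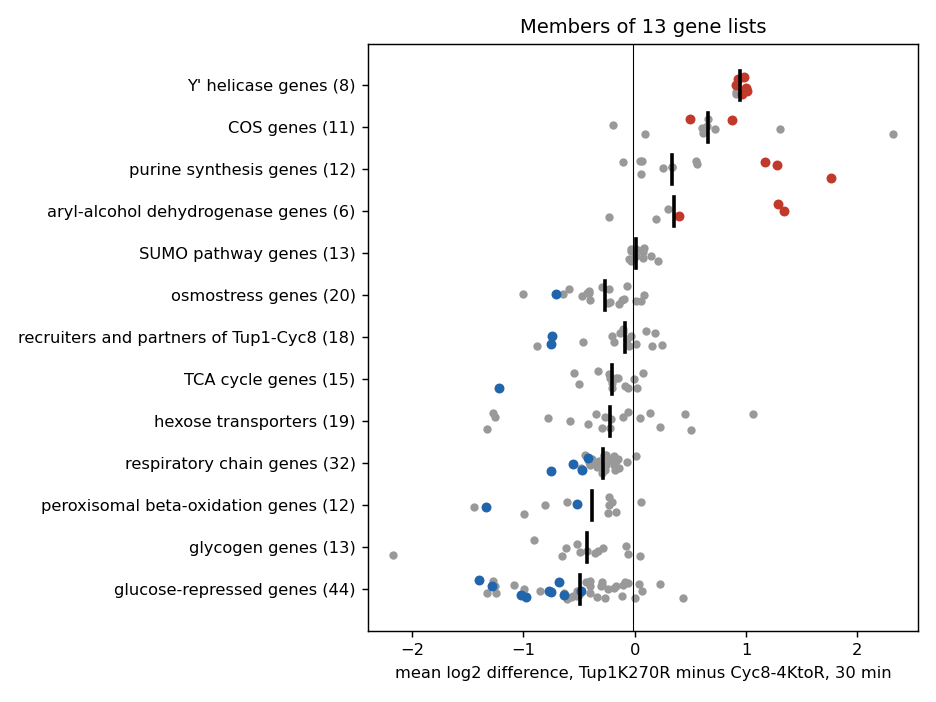
Mean difference between Tup1K270R and Cyc8-4KtoR at 30 min, in log2 units, of each measured member of 13 gene lists, with the number drawn in brackets. Red points were called higher, blue points called lower and grey points not called, and black bars are the medians over all members tested. The medians ran from 0.94 for the Y' helicase genes to -0.49 for the glucose-repressed genes. COS12 is not drawn, because it was not well above background in Cyc8-4KtoR.

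Of 12 peroxisomal genes of fatty acid oxidation, 10 lay below 0 in both replicates, with a median of -0.38, and 2 were called lower. The list was chosen after its values were seen, so these counts are not independent evidence of a direction. PEX18, which helps import enzymes into peroxisomes, stood at 2.31 and 1.65 against 3.95 and 2.68 (-1.33 ± 0.31, adjusted p = 0.0428), and ECI1, an isomerase of the pathway, differed by -0.52 (adjusted p = 0.0196, -0.76 and -0.28 in replicates A and B). POT1, the thiolase, had the largest difference of the list, -1.45, and did not pass (adjusted p = 0.196), and the acyl-CoA oxidase POX1 differed by -0.99 (adjusted p = 0.26). With normexp background correction the median was -0.12 and PEX18 differed by -0.33.

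Other genes of various roles were called lower. PIR3, a cell wall protein, stood at 0.71 and 0.46 against 2.51 and 1.44 (-1.39, adjusted p = 0.0223), CSR2, an arrestin-related protein, at 1.77 and 1.82 against 3.25 and 3.02 (-1.35, adjusted p = 0.0159), and EGO4 at 2.01 and 1.90 against 3.51 and 3.02 (-1.31, adjusted p = 0.0108). In each of them both arrays of Tup1K270R lay below both arrays of Cyc8-4KtoR. RIM4, a translational regulator of meiosis, differed by -1.27 (adjusted p = 0.0454) but was well above background on only 1 array of Tup1K270R. PHM8, a nucleotide phosphatase, differed by -1.15 (adjusted p = 0.00891), SAM1, which makes S-adenosylmethionine, by -1.10 (adjusted p = 0.0299, -1.61 and -0.59 in replicates A and B), OYE3, an oxidoreductase, by -0.96 (adjusted p = 0.00728) and YHB1, the flavohemoglobin that removes nitric oxide, by -0.83 (adjusted p = 0.0113). BIO3 and BIO4, enzymes of biotin synthesis, differed by -0.93 and -0.71, and GCV1 and GCV2, subunits of the glycine cleavage system, by -0.98 and -0.69. For GCV1 the replicates A and B gave -1.40 and -0.56, and for GCV2 -1.11 and -0.28. With normexp background correction RIM4 differed by -0.27, PHM8 by -0.28 and OYE3 by -0.25. PHM8 was the only call among 15 genes of the phosphate regulon, SAM1 among 22 of sulfate and methionine metabolism and the cyclin CLN3 (-0.46) among 13 cyclin genes with SIC1, with list medians of -0.01, 0.07 and -0.02.

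BAR1, the protease of a cells that degrades alpha factor, was the only call among the 5 a cell markers and was higher in Tup1K270R, by 0.52. The median of these markers was -0.17, and 3 of the 5 were below 0 in both replicates. The pheromone genes MFA1 and MFA2 differed by -0.33 and -0.34, the receptor gene STE2 by -0.17 and the exporter gene STE6 by 0.18.

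Of 20 measured genes that respond to osmotic stress, 1 was called, RTN2, a reticulon, which stood at 3.50 and 3.25 against 4.19 and 3.97 (-0.71, adjusted p = 0.0428). The median of the list was -0.26 (-0.09 and -0.45 in replicates A and B), 13 genes were below 0 in both replicates, and the lowest, DDR2, a stress protein, differed by -0.999 (adjusted p = 0.0612). Heat shock genes had no call among 20 and a median of -0.15, with HSP26, a small chaperone, lowest at -0.72 (adjusted p = 0.0936). The 13 genes of the SUMO pathway had no call, a median of 0.02 and a range of -0.05 to 0.21. There was also no call among 138 cytosolic ribosomal protein genes (median -0.12), 35 genes of ribosome biogenesis (-0.02), 8 ribonucleotide reductase genes (-0.31) and 6 flocculin genes (-0.02), the last of which are known targets of Tup1-Cyc8. In replicates A and B the medians were -0.23 and 0.11 for ribosome biogenesis, -0.22 and -0.04 for ribosomal proteins, -0.10 and 0.02 for flocculins and -0.24 and -0.07 for heat shock genes. With normexp background correction the median of the ribonucleotide reductase genes was -0.015.

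The same contrast before stress and at 60 min was read on other arrays. At 0 min 109 probes were called (1.78%), 44 higher (0.718%) and 65 lower (1.06%), and at 60 min 47 (0.767%), 13 higher (0.212%) and 34 lower (0.555%). All 52 probes called higher at 30 min were also above 0 on the mean at 0 min, where 21 of them were called, and 47 were above 0 at 60 min, where 9 were called. Of the 77 lower ones, 71 were below 0 at 0 min (25 called) and 73 at 60 min (16 called). Over all probes tested the median of the contrast was 0.0013 at 0 min and -0.0024 at 60 min. The share of all probes that kept their sign between times was not counted. At all 3 times 17 probes were called, 9 higher and 8 lower. The 3 times share the 2 isolates of each strain and the reference of each set. These counts rest on the replicate block too, without which 13 probes were called at 0 min and 11 at 60 min.

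No probe differed in the contrast between 30 and 0 min with an adjusted p under 0.05 (0%, with 82 or 1.34% higher and 168 or 2.74% lower at an unadjusted p under 0.05), so the genes that appear at 30 min only by their calls are not shown to differ from 0 min. The median of the glucose-repressed genes was -0.06 at 0 min, -0.49 at 30 min and -0.23 at 60 min, and that of the purine genes 0.58, 0.34 and -0.48. Of the 12 purine genes 7 were called higher at 0 min and 2 lower at 60 min. HIS4 differed by 1.80 before stress (adjusted p = 0.00233) and by 0.11 at 60 min. PDR12 differed by -1.79 before stress (adjusted p = 3.97e-06) and by -0.65 at 60 min. Respiratory chain genes had 12 calls at 0 min, all lower, 4 at 30 min and 4 at 60 min, with medians of -0.42, -0.28 and -0.34.

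Between 60 and 30 min the contrast differed for 3 probes (0.0489%), 1 upward (0.0163%) and 2 downward (0.0326%). ADE17 went from 1.44 and 2.09 at 30 min to -0.88 and -1.06 at 60 min, a change of -2.74 (adjusted p = 0.0318). Its difference at 60 min alone was not called (limma, adjusted p = 0.12). MIG1 went from -0.83 and -0.65 to 0.07 and 0.13, a change of 0.84 (adjusted p = 0.0318). GCV3, a subunit of the glycine cleavage system, differed by -0.02 on the mean at 30 min and by -0.86 at 60 min, a change of -0.84 (adjusted p = 0.0458). None of the 3 was called in this test without replicate A, without replicate B or with no replicate block.

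**Figure D5:**
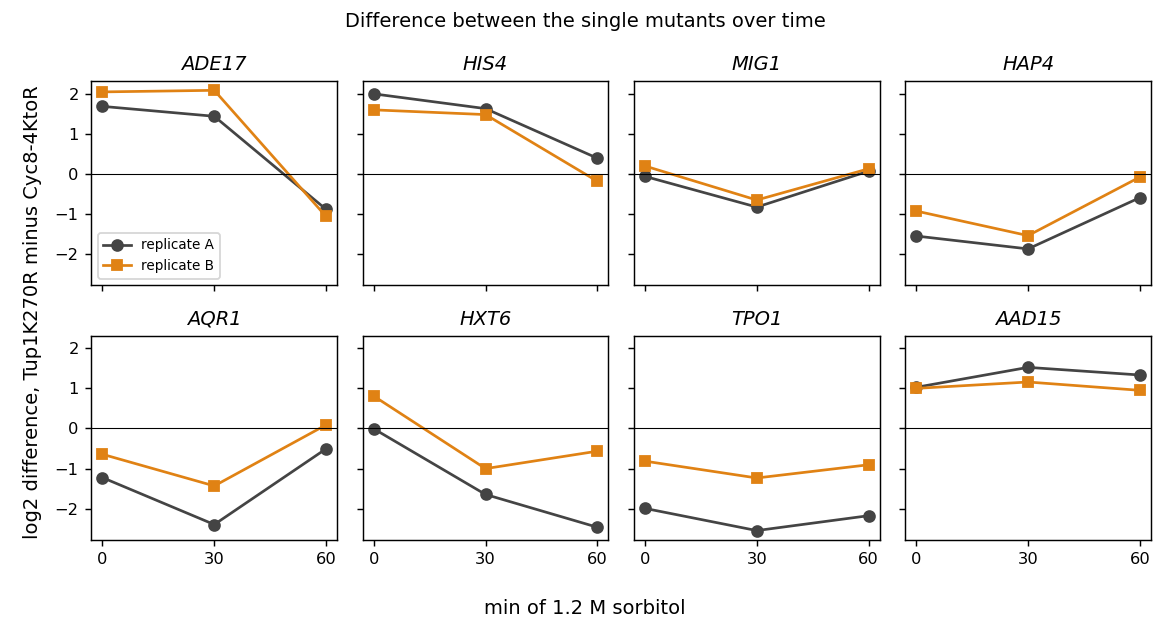
Difference between Tup1K270R and Cyc8-4KtoR at 0, 30 and 60 min of sorbitol for 8 genes, in log2 units, with replicate A as dark circles and replicate B as orange squares. ADE17 lies above 0 at 0 and 30 min and below 0 at 60 min in both replicates, and AAD15 lies above 0 at every time in both. MIG1 lies below 0 at 30 min in both replicates, with -0.06 and 0.20 in replicates A and B at 0 min.

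The other strains at 30 min place these differences. The mean of the double mutant was closer to Cyc8-4KtoR than to Tup1K270R for 46 of the 52 higher probes (88.5%) and for all 77 lower ones, against 69.1% of all probes tested. HAP4, for instance, stood at -0.02 and -0.33 in the double mutant, AQR1 at -1.02 and -1.13 and SPG4 at 3.94 and 3.52. For AAD15 the double mutant stood at -0.56 and -0.48, between the single mutants. In replicate B the double mutant and Cyc8-4KtoR lay on slide 1 and Tup1K270R on slide 2. Likeness by strain and by slide cannot be told apart there. In the wild type, sorbitol had raised 26 of the 77 lower probes past 0.65 log2 units on both arrays (33.8%, against 14.6% of all probes), but 1 of the 52 higher ones (1.92%). Labels of the double mutant arrays of replicate B conflict with each other, in the time at 30 and 60 min and in the channel at 0 min, and without the double mutant arrays in the fit 41 probes were called, 24 higher and 17 lower.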

How the data were processed

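RNA of 23 samples was hybridised to 2-colour Agilent yeast arrays with 6256 probes in 2 spots each. Per the file headers, the authors extracted background-subtracted signal intensity with Feature Extraction 10.5.1.1, and the deposited LogRatio is log10 of red over green after the authors' background subtraction and dye normalization. The deposited value table holds the same ratios as log2, with column medians of -0.027 to 0.011, and 11 of its 23 columns ran red over green and the others green over red, which by the labelled dyes is sample over reference in each. No column was left unused. Log2 of rBGSubSignal over gBGSubSignal was loess-normalized within each array and turned to sample over reference by the labelled dyes, spots of a probe were averaged, and 536 control spots an array and outlier spots were left out. Of the probes, 51 lay from YDR211W to YDR261C and 74 had no value on all 22 arrays, which left 6131, of which 6076 were well above background in both strains on at least 1 array. The 11 groups of 2 arrays were fitted with limma 3.58.1 in R 4.3.3, with the replicate set as a block because the sets have their own reference culture and dye orientation, which left 10 residual degrees of freedom (prior 3.16). Same-numbered samples deviated together in 54 of 55 pairs of groups (correlation over 0.1), and by 0.364 in the pair compared. SE is that of the fit, and p-values measure the spread between these samples. The fit took the arrays of an isolate at different times as independent samples. The SEs, p-values and degrees of freedom thus rest partly on repeated measures of the same isolates. The size of 0.65 log2 units is the rounded limit of the study's methods. Simulated data checked the fit before use. Figures were drawn with Python 3.11.15 (pandas 2.3.3, matplotlib 3.10.9, numpy 2.4.6), and files were read with the R package data.table (version 1.17.8).

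The comparison, its gene lists and its alternatives were chosen with earlier results of these data known. Named were the construct genes, genes the study names, the 12 largest differences in each direction among called probes, and called members of the lists, with list extremes where they passed 0.65 log2 units in the lists described. The genes with no list (among them VTH1, VTH2, THI11, THI12, BIO3, BIO4, GCV1, GCV2, SNQ2, YOR1, OYE3, YHB1, ADE57, RDS1, BDS1, YOL166C and GID8), the Y' element probes and the purine, histidine, aryl-alcohol dehydrogenase, exporter, peroxisomal and HAP lists were chosen after their values were seen. Of the array's names, 500 matched no entry of the R64 annotation, and no coordinates are given because the array design used another build. At 30 min 15 alternatives were tried.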

Additional observations from a re-analysis of the deposited data

Results flagged for a closer look

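A test of the difference between 60 and 30 min singled out 3 genes. The contrast changed by -2.74 log2 units for ADE17, by -0.84 for GCV3 and by 0.84 for MIG1 (limma, adjusted p = 0.0318, 0.0458 and 0.0318).

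A signal stood out in values that entered no comparison in 2 places. The probes YDR211W to YDR261C, which were left out, had a median difference of -0.95 in replicate A and of -0.06 in replicate B. On the array that compared the 2 unstressed wild-type cultures, CYC8 was at -1.26 (culture B over culture A), against a standard deviation of 0.235 over all probes of that array.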

How the results depend on the processing

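Under each alternative the counts of calls at 0 and 60 min are given after that at 30 min. Against 129, 109 and 47 calls, normexp background correction gave 53, 61 and 11, the deposited log ratios and the deposited value table each gave 2, 24 and 0, the slide as a fixed block 79, 61 and 16, and the fit without the double mutant arrays 41, 38 and 7. At 30 min 56.96% of the calls were higher with the slide as a fixed block (45 of 79), 66.04% with normexp and 58.54% without the double mutant arrays, against 40.31%. The fit of only the 4 arrays gave 0 calls at 30 min and no value for the other times. Leaving out a replicate gave 4 to 88 calls at 30 min, 10 to 54 at 0 min and 1 to 33 at 60 min, with the spread of the lone array of each strain borrowed from the remaining groups. Of the other alternatives at 30 min, median centring gave 106 and a smooth surface over spot position 114, and a filter for probes well above background on every array gave 167. With no replicate block there were 24, 13 and 11 calls, and same-numbered samples were paired in the fit above because they share a reference culture.

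The contrast between 30 and 0 min had 3 calls under the well above background filter and 0 to 1 when a replicate was left out. The 3 calls between 60 and 30 min became 0 with the deposited log ratios, the deposited value table, median centring, no replicate block, the slide as a fixed block, the fit without the double mutant arrays and, 0 to 0, each replicate left out. With normexp 108 probes in place of 243 passed 0.65 log2 units on the mean and 25 in place of 85 in both replicates, for which no value exists with a replicate left out. The offset of 50 added by normexp shrinks the ratios of dim probes by construction, and the cause of the other changes was not tested.

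Signs turned for few named genes, none of them called except NDE2. The differences without replicate A, then without replicate B, were -0.64 and 1.39 for TUP1, 0.10 and -2.13 for CYC8, 0.69 and -2.42 for LEU2, -0.92 and 0.75 for URA3, -0.13 and 0.0637 for SMT3, -0.71 and 0.0123 for HXT1, -1.04 and 1.52 for NRG2, and 0.13 and -0.16 for GCV3. URA3 differed by 0.00604 with the deposited log ratios, 0.00575 with the value table and 0.0259 with the slide as a fixed block, and SMT3 by 0.0187 with the log ratios and 0.0188 with the value table. With normexp MET17 differed by 0.00468, HXT1 by 0.0173 and NDE2 by 0.15, and with the smooth surface GCV3 by 0.0146.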
